A study of Mus musculus with 10 samples.

Results

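The TNF superfamily was followed through RNA-seq of 2 macrophage populations of the mouse lung, as 16 genes that encode ligands and 22 that encode receptors. The 38 genes were taken from the 24538 genes of the count tables by symbol: every Tnfsf or Tnfrsf gene with a number, together with Tnf, Lta, Ltb, Fas, Fasl, Cd40 and Cd70. Metastasis-associated macrophages (MAMs) came from 5 libraries of lung metastases and resident alveolar macrophages (RAMs) from 5 libraries of normal lung. All mice were wild type C57BL6/J females, 8 to 10 weeks old. Metastases were seeded through the tail vein with the mouse breast cancer line E0771-LG, injected when the mice were 6 to 8 weeks old. Those under 1 mm in diameter were dissected and pooled from 2 to 4 mice per the sample records, while the study's methods give a wider range. MAMs were sorted as CD11B+CD11C- cells and RAMs as CD11B-CD11C+ cells, and both sorts shared the gate CD45+, F4/80+, LY6C- and MRC1+. Transcription inhibitors were present while tissue was digested. The libraries thus differed in tumour, in tissue and in macrophage type at once, and these cannot be told apart. No label says which mice went into which pool, so p-values measure the spread between these libraries.

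TNF superfamily ligands are made as trimeric membrane proteins, and many are cut from the cell surface by proteases. They bind receptors with cysteine-rich domains, of which some carry a cytoplasmic death domain that recruits caspase-8, while others bind TRAF adaptors and switch on NF-kappa B and MAP kinases. A few receptors lack a working cytoplasmic tail and act as decoys. In macrophages the family is best known for TNF itself, which is released within minutes to hours of a microbial signal, and for ligands that act on lymphocytes.

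Reads on genes numbered 55391447 to 87523247 per MAM library and 50746305 to 72150650 per RAM library. Levels are given as CPM, counts scaled to a fixed library total after TMM normalization between libraries, which compare 1 gene across libraries. FPKM values, which are scaled by transcript length, compare genes with each other. The sorting markers followed the gates: the mean of the CD11B gene Itgam was 6270.2 ± 417 CPM in MAMs and 64.3 ± 5.04 CPM in RAMs (SD, n = 5 per group), and that of the CD11C gene Itgax was 171 ± 39.4 CPM in MAMs and 991 ± 91.8 CPM in RAMs. Of 8 marker genes of alveolar macrophages, 7 were lower in MAMs by more than 2-fold with an adjusted p under 0.05. Markers of other cells were not at 0 in all libraries for any list. Of 8 endothelial and stromal markers, 4 were tested and 4 were higher in MAMs, and the list summed to 41.1 to 95.3 CPM in MAM libraries, above the 2.11 to 12.6 CPM of RAM libraries, with Kdr the most abundant. Of 8 epithelial and tumour cell markers, 7 were tested and 6 were lower in MAMs. The list summed to 16.7 to 25.6 CPM in MAMs and to 609 to 734 CPM in RAMs, where most of it was Krt19. In RAMs the means of Krt19, Cdh1 and Epcam were 436, 131 and 76.8 CPM. Those of Sftpc, Scgb1a1 and Sftpb in RAMs were 14.4, 10.4 and 4.28 CPM. The keratin genes Krt18, tested and not called, and Krt8, not tested, had higher means in MAMs. They stood at 1.81 and 1.48 CPM in MAMs against 0.119 and 0.0453 CPM in RAMs, with Krt18 at 8.84 CPM in MAM 1. The summed T and NK cell markers overlapped between groups, at 12.5 to 22.4 CPM in MAMs against 13.8 to 21.6 in RAMs, but single markers moved in opposite directions. Of 14 markers 4 were tested, Cd4 was called higher in MAMs and Prf1 lower, and Cd3e and Cd247 were not called. Without Prf1, the most abundant, the mean sums were 16.3 CPM in MAMs and 5.96 CPM in RAMs. Of these sums, Cd4 alone held 10.1 and 0.619 CPM, Cd3e 1.58 and 1.22 CPM, and Cd247 1.28 and 1.04 CPM. Neutrophil markers overlapped as well, with sums of 124 to 312 CPM against 139 to 202 CPM in RAMs, and of 7 markers 5 were tested, of which Csf3r, S100a8 and S100a9 were called higher and Cxcr2 lower. The 8 dendritic cell markers summed to 8.39 to 19.4 CPM in MAMs, below the 20.3 to 30.2 CPM of RAMs, through Clec9a alone, which was called lower. The other 2 tested, Ccr7 and Batf3, were called higher, and without Clec9a the mean sums were 14.5 CPM in MAMs and 6.27 CPM in RAMs. Of 8 B and plasma cell markers, 3 were tested and 0 called by edgeR, with 0 at an unadjusted p under 0.05, and the sums of 4.35 to 23.7 CPM in MAMs overlapped the 2.88 to 17.8 CPM of RAMs. Among these markers Krt8, Krt18, Cdh1, Epcam, Sftpc, Scgb1a1, Sftpb, Cd4, Cd3e, Cd247, S100a8, S100a9, Cxcr2, Ccr7 and Batf3 were named after their values were seen. The part of these cells in the differences described here was not tested. In bulk libraries such as these, fewer cells that express a gene and less RNA per cell cannot be told apart.

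Of the 38 genes, 24 had a mean of at least 1 FPKM in MAMs or in RAMs and were tested, 9 ligands and 15 receptors. A gene was called where it changed more than 2-fold with an adjusted p under 0.05 (edgeR, quasi-likelihood). Among the 9 ligands tested, 5 were called higher in MAMs and 3 lower. Over all 11571 genes tested, 15.3% were called higher, 15.1% lower and 30.3% in either direction. Among the 15 receptors tested, 4 were called higher and 1 lower. Without the limit on fold change, 6 ligands were higher and 3 lower with an adjusted p under 0.05, and 6 receptors were higher and 4 lower, where 28.9% of all genes tested were higher, 27.3% lower and 56.2% either. The libraries of the 2 groups did not overlap for 8 ligands and for 8 receptors, where 44.9% of all genes tested did not overlap. The median log2 fold change was 1.11 over the ligands tested and -0.26 over the receptors tested, beside -0.02 over all genes. Since a gene entered the test through the group where it was high, these counts describe the genes tested and not the family as a whole.

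**Figure D1:**
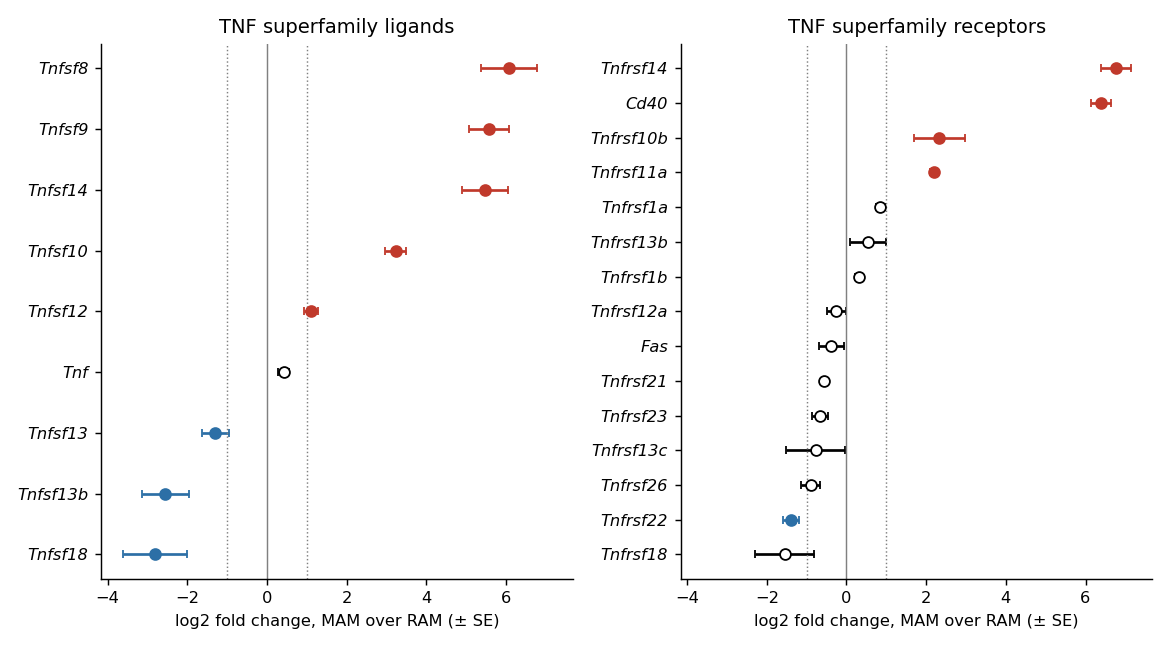
The log2 fold change of each tested gene, MAM over RAM, is plotted with its standard error, ligands on the left and receptors on the right. Filled points passed both the 2-fold limit (dotted lines) and the adjusted p, red when higher in MAMs and blue when lower, and open points did not. Changes of ligands ran from -2.82 (Tnfsf18) to 6.07 (Tnfsf8), and those of receptors from -1.56 (Tnfrsf18) to 6.77 (Tnfrsf14).

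The 3 ligands with the largest fold changes, Tnfsf8, Tnfsf9 and Tnfsf14, are known for their action on T cells. Tnfsf8 encodes CD30 ligand, the partner of the receptor CD30. Tnfsf8 had 2.74, 1.95, 1.90, 7.65 and 2.83 CPM in MAMs 1 to 5 and 0.0514, 0.0450, 0.0207, 0.104 and 0.0213 CPM in RAMs 1 to 5. Each MAM library was above each RAM library, and MAM 4 stood above the other MAMs. The means were 3.42 ± 2.41 CPM in MAMs and 0.0486 ± 0.0341 CPM in RAMs (SD, n = 5 per group), a 70.4-fold difference (log2 fold change 6.07, SE 0.708, edgeR adjusted p = 2.9e-06). The RAM libraries held only 1 to 5 reads of Tnfsf8, and without MAM 4 its mean fell under 1 FPKM in both groups, so that it was no longer tested.

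Tnfsf9 encodes 4-1BB ligand, which costimulates T cells through 4-1BB. Tnfsf9 had 5.88, 10.5, 14.6, 13.4 and 11.6 CPM in MAMs 1 to 5 and 0.514, 0.195, 0.207, 0.146 and 0.0853 CPM in RAMs 1 to 5. Its lowest MAM library was more than 10-fold above the highest RAM library. Means of 11.2 ± 3.37 CPM in MAMs and 0.229 ± 0.166 CPM in RAMs (SD, n = 5 per group) gave a 48.7-fold difference (log2 fold change 5.57, SE 0.498, edgeR adjusted p = 1.5e-07).

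Tnfsf14 encodes LIGHT, a ligand of the receptor HVEM (encoded by Tnfrsf14) and of the lymphotoxin beta receptor. Tnfsf14 had 10.3, 6.11, 7.96, 8.41 and 11.6 CPM in MAMs 1 to 5 and 0.308, 0.405, 0.0621, 0.0417 and 0.149 CPM in RAMs 1 to 5. MAM libraries were above all RAM libraries, at 8.89 ± 2.14 CPM in MAMs and 0.193 ± 0.158 CPM in RAMs (SD, n = 5 per group), a 46.0-fold difference (log2 fold change 5.47, SE 0.578, edgeR adjusted p = 9.9e-07).

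Tnfsf10 encodes TRAIL, which induces apoptosis in many tumour cells through death receptors. Tnfsf10 had 106, 73.1, 54.6, 51.9 and 50.2 CPM in MAMs 1 to 5 and 8.36, 5.71, 3.85, 9.58 and 8.27 CPM in RAMs 1 to 5. The groups did not overlap, and MAM 1 was the highest of its group. Tnfsf10 was 9.38-fold higher in MAMs, at 67.1 ± 23.4 CPM in MAMs and 7.15 ± 2.32 CPM in RAMs (SD, n = 5 per group; log2 fold change 3.23, SE 0.271, edgeR adjusted p = 7.6e-08).

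Tnfsf12 encodes TWEAK, the ligand of Fn14. Tnfsf12 had 36.5, 29.6, 23.8, 30.2 and 30.2 CPM in MAMs 1 to 5 and 10.5, 13.3, 14.9, 12.4 and 18.6 CPM in RAMs 1 to 5. It was above RAMs in each MAM library, with means of 30.1 ± 4.48 CPM in MAMs and 13.9 ± 3.04 CPM in RAMs (SD, n = 5 per group; log2 fold change 1.11, SE 0.178, edgeR adjusted p = 7.6e-05). Tnfsf12 lay near the 2-fold limit: under upper-quartile scaling, which lowered the median of all genes by 0.165 on the log2 scale, its log2 fold change was 0.94.

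Tnf, the founding member of the family, was transcribed in both macrophages. Tnf had 83.1, 53.6, 62.9, 65.9 and 69.8 CPM in MAMs 1 to 5 and 61.4, 54.7, 46.7, 47.7 and 39.4 CPM in RAMs 1 to 5. MAM 2 lay below RAMs 1 and 2, so the groups overlapped. Tnf had 67.1 ± 10.8 CPM in MAMs and 50.0 ± 8.36 CPM in RAMs (SD, n = 5 per group), a 1.34-fold difference with an adjusted p under 0.05 that stayed below the 2-fold limit (log2 fold change 0.42, SE 0.138, edgeR adjusted p = 0.017). Under upper-quartile scaling the log2 fold change of Tnf was 0.26 and its adjusted p was 0.13 (edgeR).

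**Figure D2:**
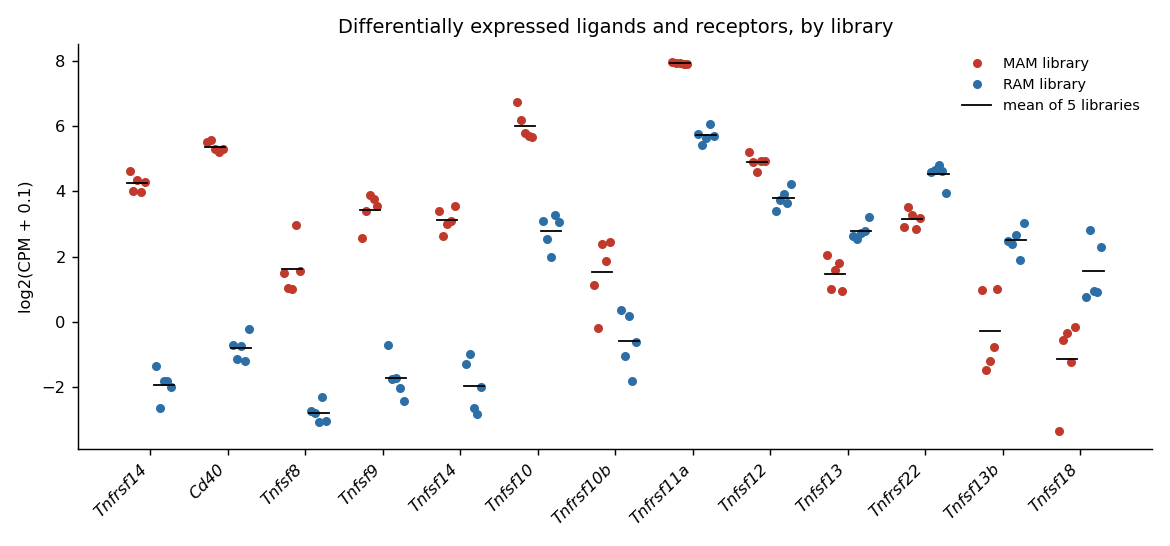
Each point is 1 library on the scale log2(CPM + 0.1), red for MAMs and blue for RAMs, for the 13 genes that were called, ordered by fold change, and black lines mark the mean of 5 libraries. The groups overlap only for Tnfrsf10b, and for Tnfrsf14, Cd40, Tnfsf8, Tnfsf9 and Tnfsf14 the RAM libraries lie below 1 CPM.

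The ligands lower in MAMs were those that act on B cells, BAFF and APRIL, and the ligand of GITR. Tnfsf13b encodes BAFF, a survival factor of B cells. Tnfsf13b had 1.89, 0.262, 0.335, 0.489 and 1.90 CPM in MAMs 1 to 5 and 5.48, 5.14, 6.27, 3.61 and 8.14 CPM in RAMs 1 to 5. MAMs 1 and 5 were close to 1.9 CPM and the other MAMs below 0.5, all under the lowest RAM library. Its means were 0.975 ± 0.843 CPM in MAMs and 5.73 ± 1.66 CPM in RAMs (SD, n = 5 per group), 5.88-fold higher in RAMs (log2 fold change -2.55, SE 0.591, edgeR adjusted p = 0.0018).

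Tnfsf13 encodes APRIL, which shares the receptors TACI and BCMA with BAFF. Tnfsf13 had 4.03, 1.89, 2.93, 3.38 and 1.84 CPM in MAMs 1 to 5 and 6.10, 5.77, 6.50, 6.84 and 9.23 CPM in RAMs 1 to 5. No MAM library reached the lowest RAM library. Tnfsf13 had 2.81 ± 0.949 CPM in MAMs and 6.89 ± 1.37 CPM in RAMs (SD, n = 5 per group; log2 fold change -1.29, SE 0.334, edgeR adjusted p = 0.0040).

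Tnfsf18 encodes GITR ligand, which costimulates T cells. Tnfsf18 had 0, 0.581, 0.693, 0.326 and 0.790 CPM in MAMs 1 to 5 and 1.61, 6.91, 1.84, 1.79 and 4.80 CPM in RAMs 1 to 5. RAMs 2 and 5 were the highest, and the count of 0 in MAM 1 allows up to 3 counts, a limit that covers counting error only. The means were 0.478 ± 0.319 CPM in MAMs and 3.39 ± 2.37 CPM in RAMs (SD, n = 5 per group), 7.09-fold higher in RAMs (log2 fold change -2.82, SE 0.805, edgeR adjusted p = 0.0077). Without RAM 2 the mean of Tnfsf18 fell under 1 FPKM in both groups and it was no longer tested, and its log2 fold change was -0.81 with limma on log2(FPKM + 1), where the pseudocount shrinks low genes.

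Tnfsf12 and Tnfsf13 lie 0.465 kb apart on chromosome 11 (GRCm38) and share exons with an annotated read-through gene, Tnfsfm13, which covers both. Tnfsf13 has 1637 exon bases, and its overlaps with Tnfsfm13 and with an antisense gene sum to 1204. A base shared with both genes counts for each in that sum. Of the 1515 exon bases of Tnfsf12, 731 are shared with Tnfsfm13. In its default mode htseq-count leaves out reads that fit several genes. Tnfsfm13 had 1 count over all 10 libraries but 25.0 ± 10.3 FPKM in MAMs and 17.7 ± 5.12 FPKM in RAMs (SD, n = 5 per group). In MAMs, Tnfsf13 had 0.0651 CPM and Tnfsf12 0.298 CPM for each FPKM, where the other 22 tested genes had 0.756 to 5.63. The counts of both ligands were thus low for their FPKM, and the part of the shared exons in this was not tested. By FPKM, Tnfsf13 had 43.2 ± 11.6 FPKM in MAMs and 137 ± 12.6 FPKM in RAMs, and Tnfsf12 had 101 ± 9.89 FPKM in MAMs and 42.3 ± 5.96 FPKM in RAMs, in the same directions as by counts.

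The other 7 ligands stayed under 1 FPKM in both groups. No read of Cd70 or Tnfsf11, the latter encoding RANK ligand, was counted in any library. Fasl had 0 to 9 counts per library, Lta 0 to 71, Ltb 9 to 58 and Tnfsf4 0 to 45. Tnfsf15, which encodes TL1A, had 193 to 422 counts in MAM libraries and 0 to 61 in RAM libraries. Where no filter on FPKM was applied, Tnfsf15 was called higher in MAMs (log2 fold change 3.93, edgeR adjusted p = 0.0052).

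Of the receptors, Cd40 and Tnfrsf14 had the largest differences. Cd40 is the receptor through which helper T cells license macrophages and dendritic cells. Cd40 had 45.1, 47.2, 38.7, 36.5 and 38.8 CPM in MAMs 1 to 5 and 0.514, 0.360, 0.497, 0.334 and 0.767 CPM in RAMs 1 to 5. No RAM library reached 1 CPM, while each MAM library was above 36 CPM. Cd40 was 83.4-fold higher in MAMs, at 41.3 ± 4.62 CPM in MAMs and 0.494 ± 0.172 CPM in RAMs (SD, n = 5 per group; log2 fold change 6.39, SE 0.245, edgeR adjusted p = 8.8e-12).

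Tnfrsf14 encodes HVEM, which binds LIGHT and, outside the family, BTLA. Tnfrsf14 had 24.6, 15.9, 20.3, 15.6 and 19.3 CPM in MAMs 1 to 5 and 0.291, 0.0601, 0.186, 0.188 and 0.149 CPM in RAMs 1 to 5. Its RAM libraries held 4 to 17 reads each and its MAM libraries 850 to 1345. The means of 19.2 ± 3.67 CPM in MAMs and 0.175 ± 0.0831 CPM in RAMs (SD, n = 5 per group) differed 109-fold (log2 fold change 6.77, SE 0.374, edgeR adjusted p = 5.9e-10).

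The RAM levels of these genes were close to the smallest share of the MAM level seen for any abundant gene. Of 86 genes above 1000 CPM in MAMs, the lowest level in RAMs was 1.06% of that in MAMs (C1qb), by library totals. On that scale RAMs had 1.07% of the MAM level of Tnfrsf14, 1.39% of Cd40, 1.63% of Tnfsf8, 2.38% of Tnfsf9 and 2.54% of Tnfsf14. Whether the few RAM reads came from RAMs was not tested.

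Tnfrsf11a encodes RANK, the receptor that drives osteoclast formation. Tnfrsf11a had 246, 242, 244, 239 and 239 CPM in MAMs 1 to 5 and 54.0, 42.6, 49.7, 66.2 and 51.4 CPM in RAMs 1 to 5. The 5 MAM libraries lay within 8 CPM of each other and all above the RAM libraries. Tnfrsf11a had 242 ± 2.98 CPM in MAMs and 52.8 ± 8.63 CPM in RAMs (SD, n = 5 per group), 4.59-fold higher in MAMs (log2 fold change 2.20, SE 0.104, edgeR adjusted p = 9.3e-11).

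Tnfrsf10b encodes the mouse death receptor for TRAIL. Tnfrsf10b had 2.09, 0.787, 5.14, 3.56 and 5.37 CPM in MAMs 1 to 5 and 1.20, 0.390, 1.04, 0.188 and 0.554 CPM in RAMs 1 to 5. MAM 2 was below RAMs 1 and 3, so the groups overlapped, and the MAMs were spread more widely than the RAMs. It had 3.39 ± 1.97 CPM in MAMs and 0.673 ± 0.429 CPM in RAMs (SD, n = 5 per group; log2 fold change 2.33, SE 0.639, edgeR adjusted p = 0.0060). Tnfrsf10b was close to the filter: without MAM 3 or without MAM 5 it was no longer tested, and with limma on log2(FPKM + 1) its log2 fold change was 0.75.

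The TNF receptors themselves were among the most abundant of the family in both groups. Tnfrsf1a encodes TNFR1, the death domain receptor found on most cells. Tnfrsf1a had 192, 147, 187, 201 and 189 CPM in MAMs 1 to 5 and 99.1, 104, 86.1, 122 and 98.2 CPM in RAMs 1 to 5. MAM 2 was the lowest MAM library, yet above the highest RAM library. Tnfrsf1a had 184 ± 20.9 CPM in MAMs and 102 ± 13.1 CPM in RAMs (SD, n = 5 per group), a 1.80-fold difference under the 2-fold limit (log2 fold change 0.85, SE 0.105, edgeR adjusted p = 5.7e-06).

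Tnfrsf1b encodes TNFR2, which lacks a death domain and is largely found on leukocytes. Tnfrsf1b had 439, 481, 443, 483 and 475 CPM in MAMs 1 to 5 and 362, 315, 336, 436 and 428 CPM in RAMs 1 to 5. MAMs lay just above RAMs, with the highest RAM library at 436 CPM and the lowest MAM library at 439 CPM. Tnfrsf1b had 464 ± 21.6 CPM in MAMs and 375 ± 54.2 CPM in RAMs (SD, n = 5 per group), 1.24-fold higher (log2 fold change 0.31, SE 0.0916, edgeR adjusted p = 0.010), and under upper-quartile scaling its adjusted p was 0.19 (edgeR).

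Tnfrsf21 encodes DR6, a death domain receptor. Tnfrsf21 had 236, 262, 201, 225 and 227 CPM in MAMs 1 to 5 and 333, 336, 354, 347 and 331 CPM in RAMs 1 to 5. It was below RAMs in each MAM library. The means were 230.3 ± 21.9 CPM in MAMs and 340.3 ± 9.87 CPM in RAMs (SD, n = 5 per group), a change under the 2-fold limit (log2 fold change -0.56, SE 0.0747, edgeR adjusted p = 1.1e-05).

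Tnfrsf22, Tnfrsf23 and Tnfrsf26 are neighbours on chromosome 7, with gaps of 6.08 kb and 16.1 kb, and are similar in sequence, so reads may be split between them or lost. Tnfrsf22 and Tnfrsf23 encode decoy receptors for TRAIL. Tnfrsf22 had 7.46, 11.4, 9.57, 7.15 and 9.05 CPM in MAMs 1 to 5 and 24.0, 25.3, 27.7, 24.6 and 15.4 CPM in RAMs 1 to 5. Tnfrsf23 had 22.0, 32.7, 32.0, 18.5 and 25.2 CPM in MAMs 1 to 5 and 37.5, 40.2, 38.4, 59.8 and 29.1 CPM in RAMs 1 to 5. Tnfrsf26 had 22.4, 30.9, 16.7, 16.3 and 33.7 CPM in MAMs 1 to 5 and 50.7, 40.0, 34.7, 64.3 and 34.3 CPM in RAMs 1 to 5. Only Tnfrsf22 passed the 2-fold limit, with each MAM library below each RAM library at 8.92 ± 1.71 CPM in MAMs and 23.4 ± 4.67 CPM in RAMs (SD, n = 5 per group; log2 fold change -1.39, SE 0.204, edgeR adjusted p = 3.1e-05). Tnfrsf26 did not overlap between groups but stayed under 2-fold (log2 fold change -0.90, SE 0.233, edgeR adjusted p = 0.0040), and Tnfrsf23 overlapped (log2 fold change -0.65, SE 0.201, edgeR adjusted p = 0.012). Tnfrsf26 passed the 2-fold limit without MAM 2 (log2 fold change -1.01), without MAM 5 (-1.06) and under upper-quartile scaling (-1.07).

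Adjusted p was over 0.05 for 5 receptors. Fas, the receptor of Fas ligand, had 8.94 ± 3.32 CPM in MAMs and 11.7 ± 4.00 CPM in RAMs (SD, n = 5 per group; log2 fold change -0.38, SE 0.311, edgeR adjusted p = 0.31). Tnfrsf12a encodes Fn14, the receptor of TWEAK. Tnfrsf12a had 8.70, 8.88, 13.8, 15.2 and 9.12 CPM in MAMs 1 to 5 and 14.4, 14.7, 14.1, 14.9 and 8.33 CPM in RAMs 1 to 5. The groups overlapped, and RAM 5 lay apart from the other RAMs (log2 fold change -0.26, SE 0.239, edgeR adjusted p = 0.38). The log2 fold changes of Tnfrsf13b and Tnfrsf13c, which encode the BAFF receptors TACI and BAFF-R, were 0.54 and -0.77 (edgeR adjusted p = 0.32 and 0.40).

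Tnfrsf18 encodes GITR. Tnfrsf18 had 6.73, 3.17, 0.380, 0.308 and 3.45 CPM in MAMs 1 to 5 and 14.2, 9.16, 5.42, 10.6 and 1.81 CPM in RAMs 1 to 5. RAM 5 was below MAMs 1, 2 and 5, and the MAM libraries themselves ranged from 17 to 331 reads (log2 fold change -1.56, SE 0.731, edgeR adjusted p = 0.084). Tnfrsf18 passed both limits with DESeq2 (log2 fold change -1.55), with limma on log2(FPKM + 1) and log2(FPKM + 0.1) (-1.91 and -2.73), without MAM 1 (-2.17) and without RAM 5 (-1.82), and its exons share 414 bases with the overlapping gene Gm16008.

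The other 7 receptors were under 1 FPKM in both groups, and none had more than 193 counts in a library. Tnfrsf17, which encodes BCMA, had 0 counts in all 10 libraries, which allows up to 3 counts per library. Tnfrsf25, which encodes DR3, the receptor of TL1A, had 1 count over the 5 MAM libraries and 4 to 90 in RAM libraries. Without the filter it was called lower in MAMs (edgeR adjusted p = 0.0017). Tnfrsf4, Tnfrsf8, Tnfrsf9, Tnfrsf11b and Tnfrsf19 had overlapping counts and were not called without the filter.

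Ligands and their receptors were set side by side. For LIGHT, both Tnfsf14 and its receptor gene Tnfrsf14 were higher in MAMs, and Ltbr, its other receptor, had a log2 fold change of 0.57 (edgeR adjusted p = 0.0012). For TRAIL, the ligand and the death receptor Tnfrsf10b were called higher, the latter with overlapping libraries. Of the decoys, Tnfrsf22 was called lower, while Tnfrsf23 was not called and overlapped between groups (log2 fold change -0.65). For BAFF and APRIL, both ligands were lower in MAMs, and neither Tnfrsf13b nor Tnfrsf13c had an adjusted p under 0.05. For GITR, the ligand Tnfsf18 was called lower in MAMs and the receptor Tnfrsf18 was not called. For CD40, the receptor was higher, and Cd40lg, the ligand made by helper T cells, had 0 to 36 counts in MAM libraries and 0 to 60 in RAM libraries. For RANK, the receptor was detected in all libraries and the ligand Tnfsf11 in none. Tnfsf8 and Tnfsf9 were higher in MAMs while their receptors Tnfrsf8 and Tnfrsf9 stayed under 1 FPKM in both groups.

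**Figure D3:**
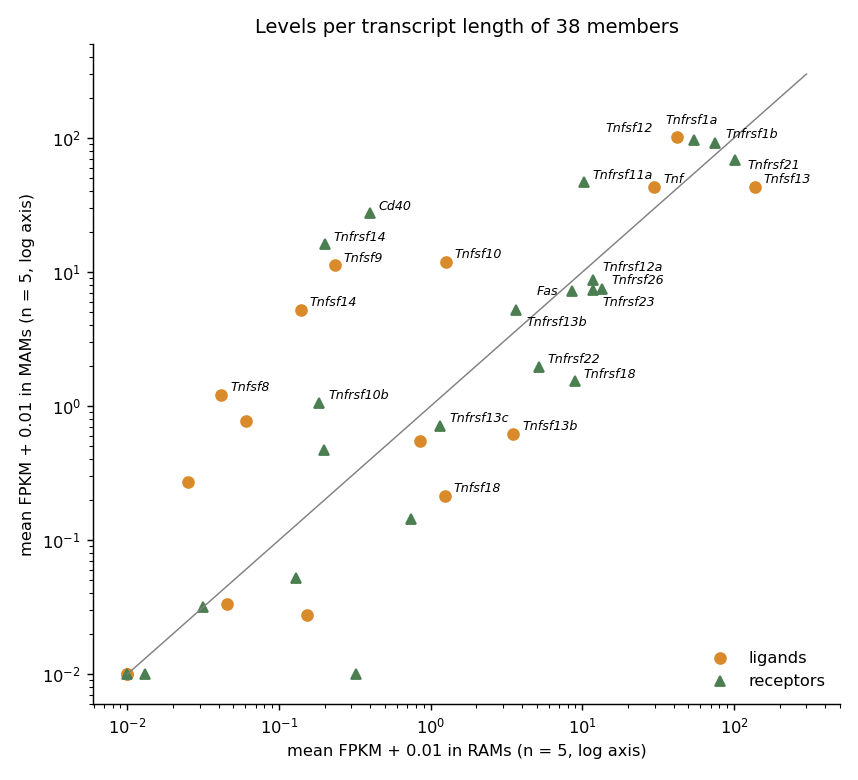
Mean FPKM + 0.01 of the 38 genes in RAMs (horizontal) and MAMs (vertical), n = 5 libraries each and both axes logarithmic, with circles for ligands, triangles for receptors and a line of equal level. Genes of at least 1 FPKM in either group are named. Tnfsf13 is plotted highest in RAMs at 137 FPKM and Tnfsf12 highest in MAMs at 101 FPKM, but these are the 2 genes whose counts are low for their FPKM, and next come Tnfrsf21 in RAMs at 101 FPKM and Tnfrsf1a in MAMs at 96.7 FPKM. Cd40, Tnfrsf14, Tnfsf9 and Tnfsf14 lie far above the line of equal level.

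Levels per transcript length put the genes in a different order from their fold changes. In MAMs, 11 of the 38 genes had a mean of at least 10 FPKM, 10 had 1 to 10 and 17 had less than 1, and in RAMs these numbers were 10, 8 and 20. Tnfsf12 and Tnfsf13 are left out of the order that follows, since their FPKM and counts disagree: in RAMs they had 0.329 and 0.0503 CPM for each FPKM, where the other 22 tested genes had at least 0.744. In MAMs the highest were then Tnfrsf1a and Tnfrsf1b, with means of 96.7 and 91.0 FPKM whose libraries overlapped, followed by Tnfrsf21 at 67.9, Tnfrsf11a at 46.6 and Tnf at 43.1. In RAMs the order was Tnfrsf21 at 101 FPKM, Tnfrsf1b at 74.7, Tnfrsf1a at 54.5 and Tnf at 29.6. Cd40 stood at 27.3 FPKM in MAMs and 0.387 FPKM in RAMs, and Tnfrsf14 at 16.1 and 0.189 FPKM. Of the genes called higher, Tnfsf8 remained low, at 1.21 ± 0.738 FPKM in MAMs and 0.0317 ± 0.0146 FPKM in RAMs (SD, n = 5 per group).

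The balance of receptors was compared by ratios within a library, which do not depend on library scaling. The log2 ratio of Tnfrsf1b to Tnfrsf1a counts was 1.35 ± 0.208 in MAMs and 1.88 ± 0.192 in RAMs (SD, n = 5 per group), or 2.54 and 3.68 reads of Tnfrsf1b for each read of Tnfrsf1a. Reads are not scaled by transcript length, so these numbers do not say which transcript was more abundant. Mean FPKM of Tnfrsf1b and Tnfrsf1a were 91.0 and 96.7 in MAMs and 74.7 and 54.5 in RAMs. The ratio of counts was lower in MAMs by an exact permutation test (two-sided, p = 0.0159, adjusted over 3 ratios p = 0.0476). MAM 2 had the highest MAM ratio, 1.71, and overlapped RAM 2 at 1.60. The adjusted p was 0.0952 without any one of MAMs 1, 3 and 4 or of RAMs 1, 3, 4 and 5, with the difference between -0.62 and -0.47 over all single libraries left out.

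The log2 ratio of Tnfsf13b to Tnfsf13 was -1.96 ± 1.38 in MAMs and -0.30 ± 0.355 in RAMs (SD, n = 5 per group; exact permutation test, two-sided, p = 0.0714, adjusted p = 0.107). MAMs 1 and 5 were at -1.09 and 0.04, and the other MAMs between -3.13 and -2.79. Without MAM 5 the difference was -2.17, with an adjusted p of 0.0476 in the exact permutation test. The counts of Tnfsf13 are low for its FPKM, as given above. By the log2 ratio of FPKM the difference was -1.26 (exact permutation test, two-sided, p = 0.159, adjusted p = 0.238). The ratio of Tnfrsf1b to Tnf was 2.80 in MAMs and 2.91 in RAMs on the log2 scale (exact permutation test, two-sided, p = 0.619).

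**Figure D4:**
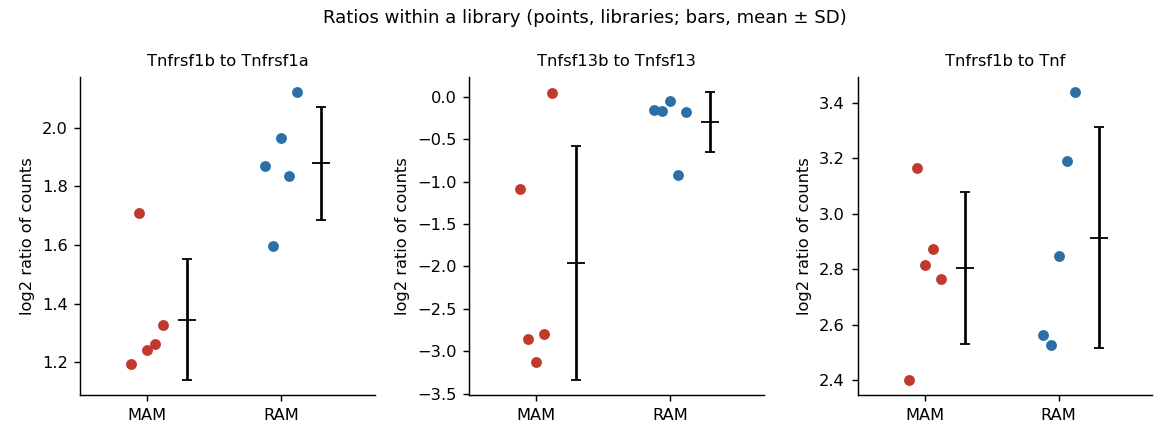
Each point is the log2 ratio of the counts of 2 genes in 1 library, red for MAMs and blue for RAMs, with the mean and SD of 5 libraries beside it, for Tnfrsf1b to Tnfrsf1a, Tnfsf13b to Tnfsf13 and Tnfrsf1b to Tnf. The first ratio is lower in MAMs with an overlap between MAM 2 and RAM 2, the second spreads widely in MAMs, and the third overlaps.

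Outside the family, 70 genes of the signalling chain around the receptors were read out in 5 lists, of which 63 were tested. Here 15 were called higher in MAMs and 5 lower, beside the 15.3% and 15.1% of all genes. Of the 19 receptor adaptors and death signalling genes, 6 were called higher and 1 lower. Traf1, which encodes an NF-kappa B inducible adaptor, had 43.2 ± 13.6 CPM in MAMs and 0.540 ± 0.357 CPM in RAMs (SD, n = 5 per group; log2 fold change 6.28, SE 0.422, edgeR adjusted p = 5.7e-09). The necroptosis genes Mlkl and Ripk3 had log2 fold changes of 3.14 and 2.76. Bid, Cflar and Birc3 had 1.99, 1.31 and 1.11. Traf4 was lower, at -1.21. Birc3 fell below the 2-fold limit under upper-quartile scaling (0.94), and Traf4 with limma on log2(FPKM + 1) (-0.68). Neither Birc3 nor Traf4 was called in the test against a fold change of 2. Traf3 and Casp8 had an adjusted p under 0.05 below the 2-fold limit (0.87 and 0.39). Traf2 (0.57, edgeR adjusted p = 0.054) and Ripk1 (0.04, 0.77) had an adjusted p over 0.05.

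Of 22 kinases and ubiquitin enzymes that lead to NF-kappa B, 4 were called higher and 1 lower. Ikbke, a kinase of antiviral signalling, had a log2 fold change of 4.26 (edgeR adjusted p = 3.0e-08), and Tank, its scaffold, 1.90. Tab2 and Rnf31, at 1.03 and 1.01, lay at the 2-fold limit. Rnf31 fell below it without MAM 1 (0.92), MAM 2 (0.997), RAM 1 (0.992), RAM 2 (0.96) or RAM 5 (0.93), and Tab2 without MAM 5 or RAM 1 (0.995 each). Rnf31 and Tab2 also fell below it under upper-quartile scaling (0.84 and 0.86) and with limma on log2(FPKM + 1) (0.92 and 0.98). With limma on log2(FPKM + 0.1) Rnf31 did so as well (0.97), and neither gene was called against a fold change of 2. Map3k5, which encodes ASK1, was lower at -1.95. Map3k14, which encodes the NF-kappa B inducing kinase of the noncanonical pathway, and Tnfaip3, which encodes A20, had 0.88 and 0.79, with an adjusted p under 0.05 and below 2-fold, though Map3k14 was called without RAM 3 (1.12).

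Of 14 genes for ligand release and mRNA control, 5 were called higher and none lower. Adam17, the protease that sheds TNF, had 324 ± 16.3 CPM in MAMs and 234 ± 13.2 CPM in RAMs (SD, n = 5 per group), a log2 fold change of 0.47 (edgeR adjusted p = 2.7e-05) that stayed below 2-fold. Rhbdf2, which encodes a partner of ADAM17, and Sppl2a, which encodes a protease that cuts the TNF stub, had 1.36 and 1.06. Sppl2a fell below the 2-fold limit without MAM 1 (0.995) and under upper-quartile scaling (0.89), and was not called against a fold change of 2. Zfp36l1, Grn and Litaf had 2.03, 1.68 and 1.37, and Zfp36, which promotes decay of Tnf mRNA, had 0.84. Among the 8 Tnfaip genes, 6 were tested and Tnfaip2 was called lower, at -1.78. Tnfaip3 and Tnfaip8 were higher but below the 2-fold limit (0.79 and 0.72, edgeR adjusted p = 1.3e-04 and 2.0e-05). Of 8 further family genes outside the naming rule, 3 were tested: Cd27 was lower at 2.64 ± 1.59 CPM in MAMs and 13.4 ± 1.95 CPM in RAMs (SD, n = 5 per group; log2 fold change -2.35, SE 0.454, edgeR adjusted p = 4.1e-04), Relt was called lower at -1.04, and Ltbr is given above. Relt lay at the 2-fold limit and lost its call in 6 of 19 alternatives: under both limma fits (-0.82 and -0.96), against a fold change of 2, and without MAM 1 (-0.92), MAM 5 (-0.99) or RAM 5 (-0.98).

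**Figure D5:**
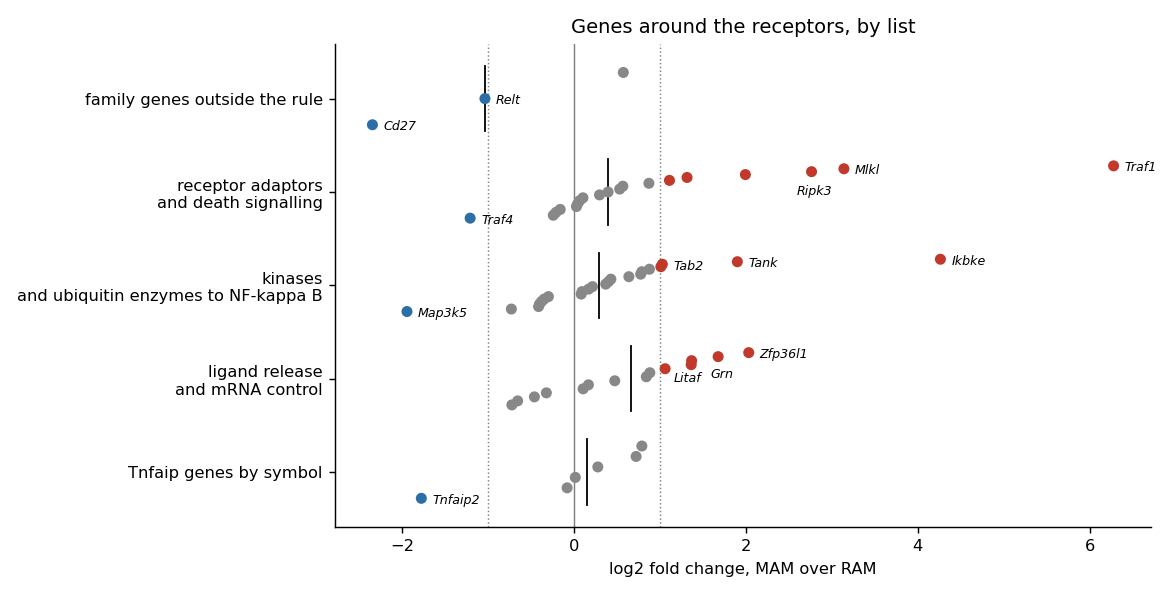
Each point is 1 tested gene of a list on the log2 fold change scale, MAM over RAM, red when called higher and blue when called lower, with a black line at the list median and dotted lines at the 2-fold limits. Traf1 (6.28) and Ikbke (4.26) lie farthest to the right, and Cd27 (-2.35) and Map3k5 (-1.95) farthest to the left.

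Several of the genes lie side by side in the genome (GRCm38, GENCODE M21). On chromosome 17, Ltb, Tnf and Lta lie within 3.06 kb and 1.16 kb of each other, and of these Tnf alone reached 1 FPKM. Tnfsf9, Cd70 and Tnfsf14 follow each other on chromosome 17 with gaps of 38.2 kb and 39.7 kb, and Tnfsf9 and Tnfsf14 were higher in MAMs while Cd70 between them had no reads. On chromosome 4, Tnfsf15 and Tnfsf8 are 86.2 kb apart, both higher in MAMs in counts. On chromosome 1, Tnfsf18, lower in MAMs, lies 76.2 kb from Tnfsf4, which had few reads, and 275 kb from Fasl.

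The 250 bases before the start of each called gene were taken from RefSeq (GRCm38.p6), where 8 of the 13 genes matched, with 9 windows. Cd40, Tnfrsf10b, Tnfrsf22, Tnfsf12 and Tnfsf9 had no entry. On both strands, 4 motifs were searched. The kappa B motif (GGGA, any 2 bases, TTCC) was found in 0 of the 8 genes and in 1.21% of 32851 promoters of that length. The interferon response motif (GAAA, any 2 bases, GAAA) was found in 2 genes, Tnfrsf14 and Tnfsf13b (2.98% of promoters). The AP-1 letters TGANTCA were found in Tnfsf14, Tnfsf13b and Tnfsf13 (6.75%), and the PU.1 letters GAGGAA in Tnfsf18 and Tnfsf14 (23.3%). A match describes letters only. The matches in Tnfrsf14, Tnfsf13b and Tnfsf13 lie within the gene as annotated in GENCODE M21, past its start there. The windows that hold these matches overlap exons of the same gene. The windows of a ligand higher in MAMs and of a ligand lower in MAMs are shown: Tnfsf14 at chr17:57194182-57194431 on the minus strand, and Tnfsf18 at chr1:161494407-161494654 on the plus strand, both without annotated exon bases. Capitals mark AP-1 and PU.1 matches.
Tnfsf14: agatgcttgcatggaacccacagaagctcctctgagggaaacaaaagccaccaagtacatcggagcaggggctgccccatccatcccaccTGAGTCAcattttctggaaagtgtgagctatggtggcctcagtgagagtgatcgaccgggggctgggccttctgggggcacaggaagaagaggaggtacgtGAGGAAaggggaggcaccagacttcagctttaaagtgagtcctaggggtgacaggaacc
Tnfsf18: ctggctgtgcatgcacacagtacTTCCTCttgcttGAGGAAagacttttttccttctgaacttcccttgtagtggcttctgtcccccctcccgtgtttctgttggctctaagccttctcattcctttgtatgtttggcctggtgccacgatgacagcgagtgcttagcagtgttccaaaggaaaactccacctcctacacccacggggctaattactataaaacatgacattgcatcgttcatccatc
In Tnfsf14 the AP-1 match TGAGTCA lies 160 to 154 bases and the PU.1 match 59 to 54 bases before the start, and Tnfsf18 has PU.1 matches at 227 to 222 and 215 to 210.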

How the data were processed

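Per the labels and the study's methods, the authors aligned paired 100 bp reads from Ovation RNA-Seq V2 libraries to GRCm38/mm10 with Tophat 2.0.13 and deposited whole-number counts per gene from htseq-count 0.6.1 on UCSC RefGene (strand setting not given in the sources used here). The authors also deposited FPKM values from Cufflinks 2.2.1. Library sizes excluded the lines that name no gene, which held 56.5% ± 1.65 of all counts in MAMs and 63.2% ± 0.898 in RAMs (SD, n = 5 per group). For the test and for CPM, library sizes were the counts on the genes tested. These were 47433655 to 74768993 in MAMs and 43710976 to 61248125 in RAMs, before the TMM factors. A count of 0 allows up to 3 counts. Without molecular identifiers the reads are not separate molecules, so such limits cover counting error only.

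Libraries were grouped by title. Genes with a mean of at least 1 FPKM in either group and a count above 0 were tested (11571 genes) with edgeR 4.0.16's quasi-likelihood test (R 4.3.3, TMM factors 0.897 to 1.10, Benjamini-Hochberg adjustment over all genes tested, no covariate). Genes that changed more than 2-fold at an adjusted p under 0.05 were called. Alternatives were other tools (DESeq2 1.42.0, or limma 3.58.1 on FPKM with 1 or 0.1 added before log2), other scalings (RLE, upper quartile), filterByExpr or no filter, a replicate block, glmTreat at 2-fold, and leaving out single libraries. Ratios used exact permutation tests (scipy 1.17.1). The tests were tested on simulated data. No 2 replicate libraries agreed within sampling noise. Members, lists and tests were chosen with earlier results of these data known. Values in every library are given for called genes and for members of at least 10 FPKM. For each signalling list the 3 largest changes, genes called lower and preset genes are named. The most abundant gene is named for the marker lists of endothelium and stroma, epithelium and tumour cells, T and NK cells, neutrophils and dendritic cells. Other markers are named only where said.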

Additional observations from a re-analysis of the deposited data

Results flagged for a closer look

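In 48 groups of 5 libraries, 1 for each tested gene and group, 4 held a library that stood apart from the other 4 by Dixon's criterion, where chance gives about 1 in 20. Tnfsf8 was at 7.65 CPM in MAM 4 and at 1.90 to 2.83 CPM in the other MAMs. Tnfsf9 was at 0.514 CPM in RAM 1 and at 0.0853 to 0.207 CPM in the other RAMs. Tnfrsf12a was at 8.33 CPM in RAM 5 and at 14.1 to 14.9 CPM in the other RAMs. Tnfrsf1a was at 147 CPM in MAM 2 and at 187 to 201 CPM in the other MAMs.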

How the results depend on the processing

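Of 451 values of the 24 tested members under the alternatives, 438 kept their direction and their side of the call, 5 lost the call, 8 gained it and 0 reversed. Cases where a member was no longer tested are not among the 451. They were Tnfrsf10b without MAM 3 or MAM 5, Tnfsf8 without MAM 4, Tnfsf18 without RAM 2 and Tnfrsf13c without RAM 4. Of these, Tnfrsf10b, Tnfsf8 and Tnfsf18 were called genes that had no call there. Of 1197 values of the 63 tested signalling genes, 1169 kept their side of the call, 27 lost the call and 1 gained it, over 7 genes. Direction was not kept in all 1169. Some uncalled genes near 0 changed sign, among them Birc2 (log2 fold change -0.10 to 0.13) and Ripk1 (-0.12 to 0.11). Receptors called lower numbered 1, and 2 under DESeq2, upper-quartile scaling, no filter and both limma fits, and 1 to 2 with a library left out. In the signalling lists 5 genes were called lower, and 3 under limma on log2(FPKM + 1) and under the test against a fold change of 2, where 1112 of all genes were called lower in place of 1745. Under that test Tnfsf12 and Tnfsf13 were no longer called (edgeR adjusted p = 0.39 and 0.27). Over all alternatives 1399 to 2349 genes were called higher and 1112 to 2323 lower. Under upper-quartile scaling, 8 members were called higher and 5 lower.

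The replicate numbers do not pair the samples: deviations of same-numbered libraries correlated at -0.0201 to 0.0443, and 2 of 5 correlated best with their own number. With the replicate block 1753 genes were called higher and 1773 lower. For the ratio of Tnfrsf1b to Tnfrsf1a the block gave an exact p of 0.125 (adjusted 0.1875), where the smallest possible is 0.0625. That ratio's difference of -0.53 lay between -0.62 and -0.47 with a library left out, and the difference for Tnfsf13b to Tnfsf13 of -1.67 between -2.17 and -1.38. Low counts limit Tnfsf8, Tnfsf18 and Tnfrsf10b, which the FPKM filter can remove.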
